A study of Mus musculus with 143 samples.

Results

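Oocytes of postnatal day 20 (p20) that lack EXOSC10 were compared directly with p20 oocytes that lack DIS3, without a control group between them. The members are the 8 single oocytes titled as Exosc10 conditional knockout (cKO) and the 8 titled as Dis3 cKO whose RNA was sequenced after removal of ribosomal RNA (RiboMinus), 16 of the 143 samples of the series. The series follows RNA and chromatin in mouse oocytes with a control genotype, either single knockout, or both knockouts together (dcKO). Per the labels, the mutant mice were made by CRISPR/Cas9 and each library is 1 oocyte with synthetic ERCC RNAs added. The Dis3 cKO group keeps Exosc10 and the Exosc10 cKO group keeps Dis3, and neither was treated. The labels name no Cre driver, promoter, strain, or animal. Titles carry a tag, 1 or 2, for 4 oocytes each in either genotype, and the labels do not say what a tag is. Oocytes of a tag may therefore share a mother, and p-values measure the spread between these oocytes only. Genotype and any difference in genetic background, litter or day between the groups cannot be told apart in this comparison.

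The RNA exosome is a ring of inactive subunits that feeds RNA to attached ribonucleases and so degrades or trims RNA from its 3′ end. DIS3 sits below the ring and receives RNA threaded through it, whereas EXOSC10 sits on top, in nucleus and nucleolus, and trims the ends of ribosomal RNA precursors, small nucleolar RNAs (snoRNAs) and other nuclear transcripts. Both take part in removing transcripts that are made from promoters, enhancers and other noncoding regions. A growing oocyte transcribes heavily and stores messenger RNA (mRNA) for meiosis and the first divisions, then falls silent, so that later changes in RNA come from decay.

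Libraries of the Exosc10 cKO group were deeper, with 16252900 to 23801344 gene counts against 9566019 to 15335017 in the Dis3 cKO group, and the ranges did not overlap. Levels are therefore given as counts per 1000000 gene counts of the library (CPM), and the comparison was repeated with all libraries thinned to the lowest total. Oocyte markers were high in both groups: the summed level of 12 oocyte markers, such as the secreted factors Gdf9 and Bmp15 and the zona genes Zp1 to Zp3, was 10700 to 14700 CPM in Dis3 cKO and 12800 to 14400 CPM in Exosc10 cKO. Markers of granulosa cells, the somatic cells around the oocyte, summed to 115 to 199 CPM and 142 to 214 CPM, and the median was below 1 CPM for 8 of 14 in Dis3 cKO and 5 of 14 in Exosc10 cKO. Of 16 markers of theca, stroma, endothelium and leukocytes, 13 had a median below 1 CPM in Dis3 cKO and 14 in Exosc10 cKO, and Lum, Cdh5, Lyz2, Hbb-bs and Hba-a1 had no count in any library. The summed level of these markers was 85.4 to 99.3 CPM and 93.1 to 137 CPM. The endothelial markers Pecam1 (medians 70.4 and 82.1 CPM) and Tek (21.7 and 23.4 CPM) were present in every oocyte. Gene counts per ERCC count ranged from 547 to 1201 (median 1087) in Dis3 cKO and from 582 to 1515 (median 1307) in Exosc10 cKO. The log2 ratio differed by 0.27 on average and the groups overlapped (exact permutation test, 2-sided, p = 0.240; adjusted p = 0.240 over 4 values per library). Oocytes 1_4 of Dis3 cKO and 2_4 of Exosc10 cKO stood apart with the lowest ratios, and without these 2 libraries the difference was 0.29 (exact p = 0.00408). Leaving out Exosc10 cKO 2_4 alone gave 0.41 (exact p = 0.00357), and leaving out Dis3 cKO 1_4 alone gave 0.14 (exact p = 0.478).

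Transcripts of both targeted genes served as a check of the labels. Dis3 (ENSMUSG00000033166, chr14:99076634-99099780, build GRCm38) was at 1.23 to 4.15 CPM (median 1.71) in the 8 Dis3 cKO oocytes and at 11.6 to 23.1 CPM (median 15.9) in the 8 Exosc10 cKO oocytes. Every Exosc10 cKO oocyte was above every Dis3 cKO oocyte, with a log2 difference of 3.03 ± 0.24 (SE; edgeR quasi-likelihood test, adjusted p = 4.64e-09). Exosc10 (ENSMUSG00000017264, chr4:148558419-148582401) was at 103 to 135 CPM (median 121) in Dis3 cKO and at 0.352 to 10.3 CPM (median 1.91) in Exosc10 cKO. The groups did not overlap in this gene either, with a log2 difference of -5.27 ± 0.44 (adjusted p = 6.94e-09). The RNA of each targeted gene was thus low in the group named for it and present in the other. In the dcKO oocytes, which enter no fit here other than the alternative with all 4 p20 groups, Dis3 was at 1.82 to 4.83 CPM and Exosc10 at 3.46 to 15.6 CPM.

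Of 13983 genes tested, 1412 (10.1%) passed an adjusted p of 0.05, the threshold used throughout for a call. The 649 genes called higher in Exosc10 cKO were 4.64% of those tested and the 763 called lower were 5.46%. Most differences were moderate: 827 called genes differed by less than 1 on the log2 scale, 585 by at least 1 and 235 by at least 2. The median log2 difference over all tested genes was 0.0099. Scaling to ERCC counts in place of the bulk of genes moved this median to 0.30, and the split of the calls became 622 higher to 148 lower, so that 80.8% of calls were higher against 46.0% before. Lower levels in Exosc10 cKO below are thus lower relative to the bulk of RNA. Thinning the counts to the smallest library gave 625 higher and 756 lower of 12905 genes, and leaving out the 2 low-ratio oocytes gave 620 and 715.

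**Figure D1:**
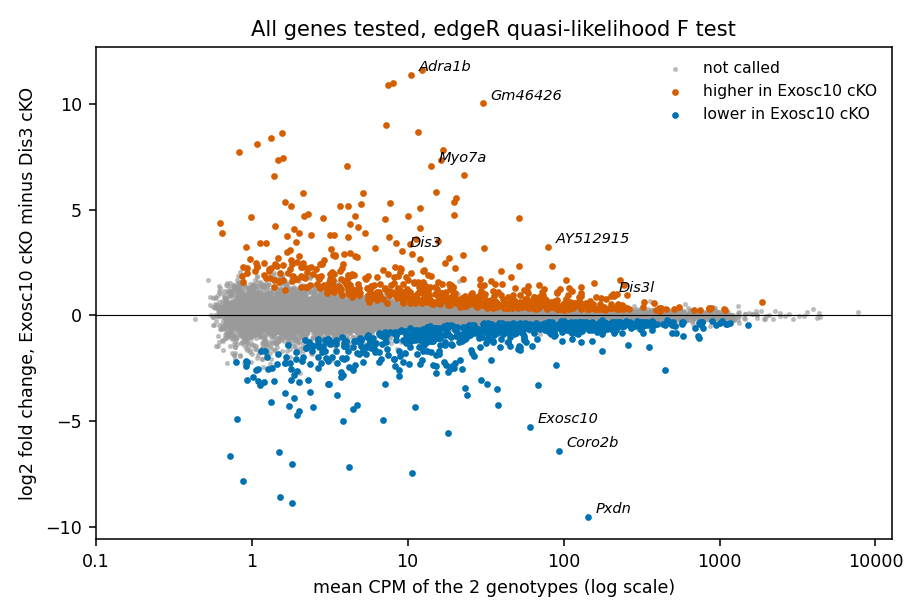
Log2 difference between Exosc10 cKO and Dis3 cKO oocytes (y axis) against the mean level in CPM of both groups (x axis, log scale) for each of the 13983 genes tested. Coloured points passed an adjusted p of 0.05 (649 higher, 763 lower), and Pxdn, at -9.52, lies lowest.

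The clearest differences were genes expressed in every oocyte of a genotype and near 0 in every oocyte of the other. A total of 306 called genes (2.19% of those tested) had groups that did not overlap and a mean of at least 10 CPM in the higher group, 157 (1.12%) higher in Exosc10 cKO and 149 (1.07%) lower. Within this set 18 genes were at or below 3 CPM in all 8 oocytes of a genotype and at or above 10 CPM in all 8 of the other. Of these, 15 were on in Exosc10 cKO and 3 in Dis3 cKO.

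Among the genes on in Dis3 cKO, the largest difference was that of Pxdn (chr12:29936642-30017658), which encodes peroxidasin, an enzyme that crosslinks collagen IV in basement membranes. Pxdn was at 253 to 339 CPM (median 279) in Dis3 cKO and at 0 to 1.39 CPM (median 0.179) in Exosc10 cKO. The log2 difference was -9.52 ± 0.34 (adjusted p = 3.21e-15). All 8 Dis3 cKO oocytes were therefore high and all 8 Exosc10 cKO oocytes nearly empty, and the dcKO oocytes were also low, at 0 to 2.002 CPM. Coro2b (chr9:62419490-62537044), a coronin that binds actin, was at 149 to 209 CPM (median 185) in Dis3 cKO and at 1.38 to 3.07 CPM (median 2.36) in Exosc10 cKO, a log2 difference of -6.38 ± 0.18 (adjusted p = 2.60e-17). Here the dcKO oocytes were high, at 82.0 to 248 CPM, on the side of Dis3 cKO.

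Adra1b (chr11:43774605-43901250), the alpha-1B adrenergic receptor, showed the converse. It had no count in any Dis3 cKO oocyte and was at 7.76 to 33.5 CPM (median 20.1) in Exosc10 cKO, at least 715-fold higher when 3 counts over the Dis3 cKO group are taken as the limit that a count of 0 allows (adjusted p = 3.98e-10). The dcKO oocytes held it at 8.25 to 30.1 CPM, on the side of Exosc10 cKO, and the adult title tags at 0.00881 to 0.312 CPM. As these 3 genes are among those with the largest differences, the 250 bases before the start of the transcript that RefSeq gives are shown 5′ to 3′ (GRCm38.p6), with each CG dinucleotide in capitals. The window of Pxdn (chr12:29937786-29938035, plus strand) holds 14 CG, that of Coro2b (chr9:62537045-62537294, minus strand) 15, and that of Adra1b (chr11:43901238-43901487, minus strand) 3. The window of Pxdn lies inside the interval given above for the gene, and that of Adra1b overlaps the end of its interval. For both genes the start used is thus not the outermost. The median is 6 over all 32851 windows of the table and 16 over the 73.4% of tested genes that have a window, so that none of these 3 lies above the median of tested genes. CG reads the same on both strands, and its number says nothing of methylation here.
Pxdn: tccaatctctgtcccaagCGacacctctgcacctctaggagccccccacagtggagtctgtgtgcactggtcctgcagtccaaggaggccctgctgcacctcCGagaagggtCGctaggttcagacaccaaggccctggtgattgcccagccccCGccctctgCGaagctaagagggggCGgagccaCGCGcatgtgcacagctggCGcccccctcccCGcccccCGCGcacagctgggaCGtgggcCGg
Coro2b: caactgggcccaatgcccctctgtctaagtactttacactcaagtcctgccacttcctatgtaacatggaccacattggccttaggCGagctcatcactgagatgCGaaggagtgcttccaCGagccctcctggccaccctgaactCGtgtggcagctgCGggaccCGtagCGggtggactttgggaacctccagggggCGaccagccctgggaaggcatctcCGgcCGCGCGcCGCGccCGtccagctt
Adra1b: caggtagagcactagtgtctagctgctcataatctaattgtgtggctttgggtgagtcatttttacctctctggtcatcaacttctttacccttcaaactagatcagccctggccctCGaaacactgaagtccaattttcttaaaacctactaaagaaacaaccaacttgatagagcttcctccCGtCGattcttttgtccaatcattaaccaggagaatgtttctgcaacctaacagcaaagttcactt

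Further genes lower in Exosc10 cKO were B020011L13Rik, at 14.5 to 26.5 CPM in Dis3 cKO and 0 to 0.403 CPM in Exosc10 cKO, and the lncRNA gene A930015D03Rik, which overlaps H2-T24, H2-T23 and H2-T22, at 26.1 to 49.4 CPM and 0.117 to 1.43 CPM. The neuronal adhesion gene Cntn2 was at 44.7 to 97.4 CPM (median 72.2) in Dis3 cKO and 0.167 to 6.39 CPM (median 4.53) in Exosc10 cKO. Its relative Nrcam, also an adhesion molecule, was at 100 to 151 CPM (median 126) and 1.43 to 28.7 CPM (median 12.1). Kctd21, which encodes an adaptor for cullin ubiquitin ligases and overlaps Usp35, was at 30.9 to 52.2 CPM and 1.69 to 4.96 CPM. Trim15, of the tripartite motif family, was at 61.0 to 89.2 CPM and 4.01 to 11.5 CPM. Ccbe1, an extracellular factor of lymphatic growth, was at 32.0 to 60.3 CPM and 1.35 to 9.40 CPM. The lowest expressed of this set were Cltrn, a partner of amino acid transporters, at 7.56 to 25.6 CPM and 0 to 1.22 CPM, and H2-Aa, a chain of MHC class II, at 7.17 to 34.5 CPM and 0 to 2.40 CPM. Their log2 differences ran from -3.28 (Nrcam, adjusted p = 8.65e-07) to -7.42 (B020011L13Rik, adjusted p = 6.10e-13).

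Genes without a count in Dis3 cKO and present in all 8 Exosc10 cKO oocytes were, beside Adra1b, AC127234.1 (15.4 to 32.2 CPM, at least 822-fold higher), the lncRNA gene Gm30198 (11.5 to 22.1 CPM, at least 529-fold) and Arhgef15 (12.2 to 18.1 CPM, at least 494-fold), which overlaps Gm51902. 5730507C01Rik had 2 counts in all Dis3 cKO oocytes together and 2229 in Exosc10 cKO, a ratio of 729 (95% counting interval 202 to 6020, counting error only). Gm46426 was at 0 to 0.1304 CPM in Dis3 cKO and 47.0 to 71.8 CPM in Exosc10 cKO. Fam124a was at 0 to 0.218 CPM and 11.5 to 32.3 CPM, and Sh3rf2, which encodes a ubiquitin ligase of the SH3 domain type, at 0 to 0.673 CPM and 21.8 to 46.6 CPM. Myo7a (chr7:98051054-98119522), the unconventional myosin of inner ear hair cells, was at no more than 0.536 CPM in Dis3 cKO and at a median of 27.8 CPM (highest 38.8) in Exosc10 cKO, and Gm7104 at 0.067 to 0.943 CPM and 36.5 to 59.0 CPM. Gm7224, which overlaps Vmn2r59, was at 0 to 0.587 CPM and 17.9 to 48.7 CPM, and Fmo6, of the flavin monooxygenases, at 0 to 1.39 CPM and 17.0 to 41.0 CPM. None of these genes overlapped between the groups, and adjusted p ranged from 3.59e-17 (Gm46426) to 1.03e-08 (Fmo6).

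**Figure D2:**
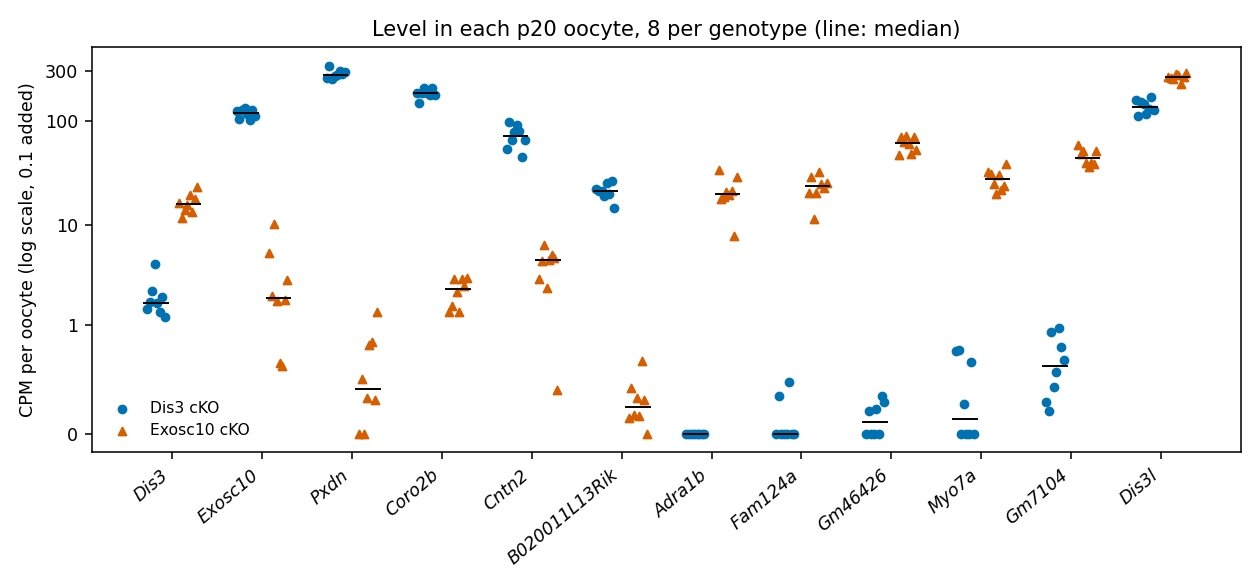
Level in CPM (y axis, log scale with 0.1 added) of 12 genes in each of the 8 Dis3 cKO oocytes (circles) and 8 Exosc10 cKO oocytes (triangles) at p20, with the median as a line. The groups are apart in every gene shown, with Pxdn at 253 to 339 CPM in Dis3 cKO and at most 1.39 CPM in Exosc10 cKO.

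The next lncRNA genes by size of difference were Gm16548 (overlapping Selp and F5), at 0 to 0.822 CPM in Dis3 cKO and 3.25 to 25.3 CPM in Exosc10 cKO, Gm15446, at 0.469 to 2.95 CPM and 22.4 to 57.3 CPM, and AY512915, at 10.8 to 21.8 CPM and 130 to 167 CPM. In the other direction Gm12130 was at 11.7 to 19.6 CPM in Dis3 cKO and 1.05 to 4.78 CPM in Exosc10 cKO. Of 761 lncRNA genes tested 45 were called higher (5.91%, against 4.64% of all genes) and 20 lower (2.63%, against 5.46%), 8.54% in all against 10.1%. The median log2 difference of lncRNA genes was 0.16, against 0.0099 over all genes, and the difference between these values was not tested. The share of gene counts in lncRNA genes was 1.14% to 1.23% (median 1.19%) in Dis3 cKO and 1.16% to 1.49% (median 1.21%) in Exosc10 cKO. These ranges overlapped, and the difference did not pass the test (log2 difference 0.066, exact permutation test, p = 0.1299, adjusted p = 0.173). Without the most abundant lncRNA the difference was 0.093 (exact p = 0.0311), without Exosc10 cKO 1_2 it was 0.081 (exact p = 0.0497), and without Exosc10 cKO 2_4, the oocyte with the highest share, it was 0.029 (exact p = 0.260).

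Exosome genes other than the targeted ones were examined by role. No gene among the 8 measured ring and cap subunits was called (edgeR), and their median log2 difference was 0.042. Of 6 exosome ribonucleases and relatives 4 were called (66.7%, against 10.1% of all genes), a count that includes both targeted genes. The others were Dis3l and Xrn1. Dis3l (chr9:64306756-64341403), the cytoplasmic relative of DIS3, was at 112 to 170 CPM (median 138) in Dis3 cKO and at 227 to 287 CPM (median 266) in Exosc10 cKO. The groups were apart and the log2 difference was 0.90 ± 0.10 (adjusted p = 5.44e-07), with the dcKO oocytes at 126 to 194 CPM. Xrn1, the cytoplasmic 5′ to 3′ exonuclease, was at 103 to 150 CPM (median 133) in Dis3 cKO and 69.6 to 109 CPM (median 89.8) in Exosc10 cKO, a log2 difference of -0.50 ± 0.11 (adjusted p = 0.00294), and the groups overlapped. Its call ended with ERCC scaling, where the log2 difference was -0.19 (adjusted p = 0.562), and within either title tag alone, where it was -0.54 (tag 1) and -0.47 (tag 2). Of 22 measured exosome cofactors 2 were called (9.09%, against 10.1% of all genes), and 1 to 3 over leave-outs. That count moved by over 1.5 times without Dis3 cKO 1_2, 1_3, 2_1 or 2_3 or Exosc10 cKO 1_2, 1_4, 2_1 or 2_4. Ncbp3, a cap-binding partner, was at 71.4 to 92.2 CPM in Dis3 cKO and 46.3 to 65.5 CPM in Exosc10 cKO (log2 difference -0.60 ± 0.10, adjusted p = 0.000195; 0.389 with ERCC scaling). Zcchc7, of the TRAMP complex, had medians of 36.9 CPM and 51.7 CPM (log2 difference 0.45 ± 0.14, adjusted p = 0.0391).

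Genes that host snoRNAs or act in ribosome production were read next. Of 16 snoRNA genes tested themselves 1 was called lower and none higher (6.25%, against 10.1% of all genes). Their median log2 difference was -0.42, against 0.0099 over all genes, and the difference between these medians was not tested. Among 17 measured snoRNA host genes Snhg14 (4.89 to 12.2 CPM in Dis3 cKO, 8.86 to 22.2 CPM in Exosc10 cKO; log2 difference 0.79, adjusted p = 0.0322) and Snhg18 (5.74 to 10.9 CPM and 6.50 to 22.4 CPM; 0.77, adjusted p = 0.0235) were called, 11.8% against 10.1% of all genes, and the count was 1 to 3 over leave-outs. Among 53 ribosomal RNA processing factors only Ddx47, an RNA helicase, was called, 1.89% of the list, with 1 to 2 calls over leave-outs (29.3 to 56.5 CPM and 49.4 to 82.6 CPM; log2 difference 0.63 ± 0.14, adjusted p = 0.00321). The snoRNA host count moved by over 1.5 times without Dis3 cKO 1_1, 1_2, 1_3, 1_4 or 2_3 or Exosc10 cKO 1_4, 2_2, 2_3 or 2_4, and the processing factor count without Dis3 cKO 1_2, 2_2 or 2_3 or Exosc10 cKO 1_2, 1_3 or 2_4. The list medians were 0.058 and 0.038, near the 0.0099 of all genes. Of 43 spliceosome and 3′ end genes none was called by edgeR, with a median of 0.0056.

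The summed share of replication-dependent histone genes, and 11 of the 31 genes tested, were higher in Exosc10 cKO. Their mRNAs end in a stem-loop in place of a poly(A) tail, so a RiboMinus library can hold them where a poly(A) library largely does not. Of 67 genes on the list 31 were tested, and 11 of these were called higher and none lower, 35.5% against 10.1% of all genes, with a median log2 difference of 0.68. The other 20 were not called, and 6 of these had a log2 difference below 0, from -0.011 for Hist1h2bj to -0.95 for Hist2h3b. By class 6 of 8 H4 genes, 2 of 4 H1, 2 of 6 H3 and 1 of 9 H2B genes were called, and none of the 4 H2A genes. Their share of all gene counts was 0.0608% to 0.119% (median 0.0767%) in Dis3 cKO and 0.0817% to 0.248% (median 0.144%) in Exosc10 cKO. All 8 Exosc10 cKO oocytes lay above the Dis3 cKO mean, although the ranges overlapped, and the log2 share differed by 0.77 (exact permutation test, 2-sided, p = 0.00513, adjusted p = 0.0205 over 4 values). The count was 8 without the 2 low-ratio oocytes and 13 with ERCC scaling, all of them higher.

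Hist1h4d was at 0.103 to 1.47 CPM (median 0.529) in Dis3 cKO and 2.01 to 20.4 CPM (median 8.98) in Exosc10 cKO, a log2 difference of 3.88 ± 0.52 (adjusted p = 1.32e-05). Hist1h4i was at 14.4 to 25.9 CPM (median 20.4) and 36.2 to 86.9 CPM (median 57.2), a log2 difference of 1.497 ± 0.16 (adjusted p = 6.98e-07). The groups were apart in both genes. Hist1h4h was at 4.15 to 9.10 CPM and 8.93 to 30.5 CPM (log2 difference 1.86, adjusted p = 4.83e-06) and Hist1h4b at 0.314 to 1.83 CPM and 1.004 to 7.88 CPM (1.94, adjusted p = 0.00859). The linker histone genes Hist1h1d and Hist1h1e had medians of 23.4 and 8.01 CPM in Dis3 cKO and of 53.6 and 21.6 CPM in Exosc10 cKO (adjusted p = 0.000763 and 0.0143). The highest called member was Hist1h3f, at a median of 138 CPM and 278 CPM (log2 difference 0.92, adjusted p = 0.0121). In dcKO the medians of Hist1h4i, Hist1h4h and Hist1h1d were 155, 51.0 and 132 CPM. H4 genes have near-identical coding sequences, so how reads were split among copies is uncertain.

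**Figure D3:**
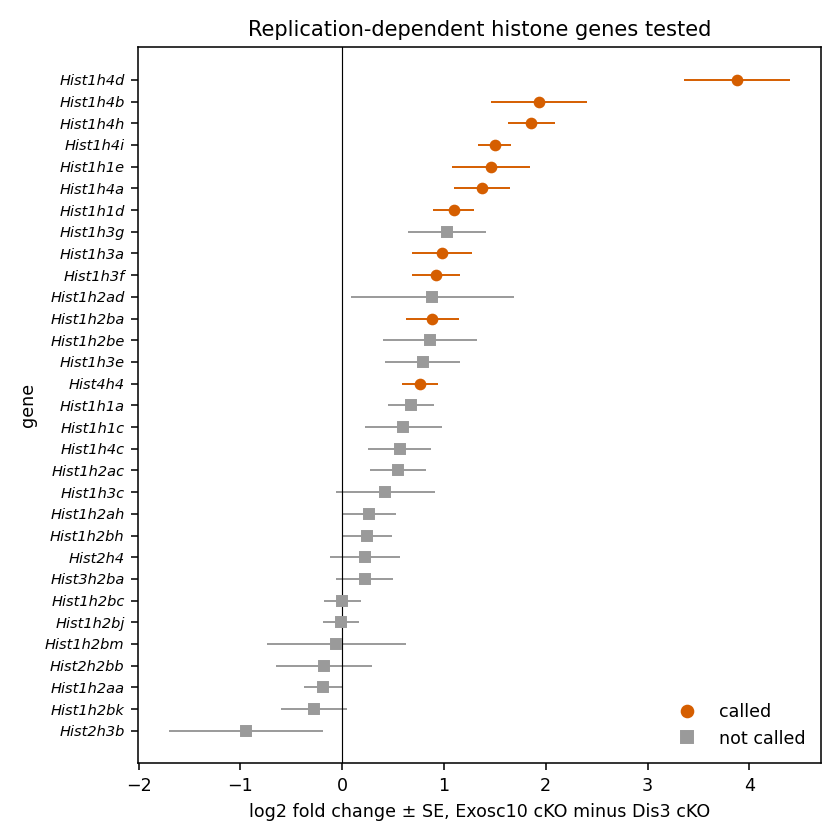
Log2 difference between Exosc10 cKO and Dis3 cKO (x axis, point ± SE) for the 31 replication-dependent histone genes tested (y axis). Circles are the 11 called genes, all to the right of 0, led by Hist1h4d at 3.88.

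Because the H4 genes led this list, the 60 bases before the start of 5 called H4 genes are shown from RefSeq (GRCm38.p6), 5′ to 3′. Capitals mark GGTCC, the core of a known element of H4 promoters, or its reverse complement GGACC; Hist1h4a has neither. The window of Hist1h4d lies at chr13:23581508-23581567, plus strand. The window of Hist1h4b lies at chr13:23756877-23756936, plus strand. The window of Hist1h4h lies at chr13:23530984-23531043, plus strand. The window of Hist1h4i lies at chr13:22041363-22041422, minus strand. The window of Hist1h4a lies at chr13:23761250-23761309, minus strand. The letters were found in 6 of the 7 tested H4 genes with a window in the table (5 of 6 that were called) and in 11.1% of all 32851 windows of that length.
Hist1h4d: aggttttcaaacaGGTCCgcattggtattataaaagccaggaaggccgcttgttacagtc
Hist1h4b: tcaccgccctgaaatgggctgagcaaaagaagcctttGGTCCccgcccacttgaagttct
Hist1h4h: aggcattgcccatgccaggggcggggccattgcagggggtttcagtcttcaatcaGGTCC
Hist1h4i: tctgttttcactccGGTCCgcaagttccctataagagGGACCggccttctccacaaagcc
Hist1h4a: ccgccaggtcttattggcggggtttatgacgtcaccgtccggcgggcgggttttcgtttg

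Maternal, meiotic and chromatin genes were called at shares near that of all genes: 9.76% of the oocyte growth list, 11.1% of the meiotic switch list and 12.1% of the chromatin list, against 10.1%. When 1 oocyte was left out these counts were 3 to 4, 1 to 3 and 1 to 4. The meiotic count moved by over 1.5 times without Dis3 cKO 1_3 or 2_2 or Exosc10 cKO 1_1 or 1_2, and the chromatin count without Dis3 cKO 1_2, 1_3 or 2_2 or Exosc10 cKO 1_4, 2_1 or 2_4. Of 41 measured genes of oocyte growth 1 was called higher and 3 lower, with a median log2 difference of -0.083. Khdc3, of the subcortical maternal complex, was at 74.7 to 155 CPM in Dis3 cKO and 102 to 240 CPM in Exosc10 cKO (log2 difference 0.70 ± 0.16, adjusted p = 0.00565), whereas Nlrp5, of the same complex, was at 1016 to 1610 CPM and 606 to 1253 CPM (-0.43 ± 0.13, adjusted p = 0.0348). The transcription factor gene Pou2f1 was at 333 to 460 CPM and 168 to 326 CPM without overlap (-0.60 ± 0.11, adjusted p = 0.000865), and Nlrp4c at 57.8 to 74.8 CPM and 28.6 to 60.5 CPM (-0.50 ± 0.12, adjusted p = 0.00682). Among 27 genes of the meiotic switch Arpp19, an inhibitor of the phosphatase PP2A, stood apart at 95.1 to 126 CPM in Dis3 cKO and 159 to 271 CPM in Exosc10 cKO (0.87 ± 0.10, adjusted p = 1.61e-06). Ccnb3 (cyclin B3) had a log2 difference of -1.03 (adjusted p = 0.0376) and the phosphatase gene Cdc14b of -0.60 (adjusted p = 0.0338). Of 33 genes of Polycomb, DNA methylation and H3K9 methylation 4 were called: Ezh2, the H3K27 methyltransferase, at 414 to 550 CPM and 340 to 460 CPM (-0.38 ± 0.09, adjusted p = 0.00592), Uhrf1 (-0.38, adjusted p = 0.0433), Pcgf5 (-0.58, adjusted p = 0.0496) and Setdb1 (0.22, adjusted p = 0.0264). With ERCC scaling every lower call of this paragraph ended (Nlrp5, Pou2f1, Nlrp4c, Ccnb3, Cdc14b, Ezh2, Uhrf1 and Pcgf5, adjusted p from 0.233 for Ccnb3 to 0.886 for Uhrf1), as did the higher call of Setdb1 (log2 difference 0.51, adjusted p = 0.134), whereas Khdc3 and Arpp19 kept theirs.

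The shares called were 13.2% of the mRNA decay list, 8.11% of the polymerase II list, 4.0% of the vesicle traffic list, 5.56% of the DNA damage list and 6.67% of the amino acid transporter list, against 10.1% of all genes. Of 38 mRNA decay genes 5 were called, all lower, where 5.46% of all genes were called lower (list median -0.059): Dcp1b and Dcp2 of the decapping complex, Tob1, which recruits deadenylases, the uridylyltransferase gene Tut7, and Xrn1, and none was called with ERCC scaling by edgeR. Their sign stayed negative under that scaling. The log2 difference was then -0.98 for Dcp1b (adjusted p = 0.161), -0.18 for Tob1 and -0.074 for Tut7. The count was 3 to 6 when 1 oocyte was left out, and moved by over 1.5 times without Dis3 cKO 1_2 or 2_1 or Exosc10 cKO 1_1, 1_4 or 2_1. Dcp1b was at 2.61 to 7.499 CPM in Dis3 cKO and 0.492 to 3.08 CPM in Exosc10 cKO (log2 difference -1.25, adjusted p = 0.0324), Tob1 at 65.0 to 151 CPM and 45.7 to 86.8 CPM (-0.49, adjusted p = 0.0455), and Tut7 at 49.9 to 64.9 CPM and 38.3 to 52.5 CPM (-0.37, adjusted p = 0.0172). Of 37 polymerase II and elongation genes Cdk13 (-0.50, adjusted p = 0.0309), Ccnt1 (-0.43, adjusted p = 0.0346) and Cdk7 (0.36, adjusted p = 0.0437), which encode kinases and a cyclin of transcription, were called. That count was 0 to 4 over leave-outs, and moved by over 1.5 times without Dis3 cKO 1_1, 1_3, 2_1, 2_3 or 2_4 or Exosc10 cKO 1_4 or 2_1. Of 50 vesicle traffic genes Rab31 was at 11.4 to 46.6 CPM and 2.45 to 11.8 CPM (-1.74 ± 0.33, adjusted p = 0.000851) and the early endosome GTPase gene Rab5a at 25.5 to 38.3 CPM and 15.6 to 28.9 CPM (-0.55 ± 0.15, adjusted p = 0.0171). Parp1 was the only call among 18 DNA damage genes (-0.48, adjusted p = 0.0463), Slc38a1 among 15 amino acid transporter genes (-2.58, adjusted p = 0.0269) and Has2, a hyaluronan synthase of cumulus cells, among 8 tested granulosa markers (12.5%; 2.27 to 10.98 CPM and 0.0557 to 3.42 CPM; -1.95, adjusted p = 0.00890). The vesicle traffic count was 2 to 4 over leave-outs, and moved by over 1.5 times without Dis3 cKO 1_4. The transporter count was 0 to 2, and so moved without Dis3 cKO 1_4 or 2_2 or Exosc10 cKO 1_4 or 2_1. The granulosa marker count was 1 to 2, and so moved without Exosc10 cKO 1_2 or 2_3. The DNA damage count was 0 to 1, and so moved in 12 leave-outs. With ERCC scaling the calls of Cdk13, Ccnt1, Rab5a, Parp1, Slc38a1 and Has2 ended. The log2 difference was then -2.17 for Slc38a1 (adjusted p = 0.0598) and -1.56 for Has2 (adjusted p = 0.0761), and lay between -0.16 (Parp1, adjusted p = 0.716) and -0.25 (Rab5a, adjusted p = 0.563) for the others. The other tested granulosa markers were not called and went both ways. Amh had medians of 0.592 CPM in Dis3 cKO and 2.19 CPM in Exosc10 cKO (log2 difference 1.77, adjusted p = 0.121). Inha had medians of 0.599 CPM and 2.61 CPM (1.79, adjusted p = 0.102), and Cyp19a1 was also positive (0.26). Fshr (-0.66), Inhba (-0.35), Kitl (-0.32) and Nr5a2 (-0.086) had the sign of Has2, and the list median was -0.20. The part of granulosa RNA in these values was not tested.

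Many of these smaller calls lie close to the threshold. Of 33 genes named from the lists, the targeted genes left aside, 5 were called under every alternative (Dis3l, Hist1h4d, Hist1h4h, Hist1h4i and Arpp19), and 16 lost the call when 1 oocyte was left out. Of the 16 leave-outs, the call ended in 8 for Zcchc7, 7 for Snhg14, 7 for Dcp1b, 10 for Tob1, 4 for Cdk13, 9 for Ccnt1, 12 for Cdk7, 9 for Ccnb3, 9 for Cdc14b, 8 for Nlrp5, 11 for Pcgf5, 11 for Uhrf1 and 12 for Parp1. The highest adjusted p among those leave-outs was 0.107, for Parp1. Over all 16 leave-outs the log2 difference was 0.40 to 0.51 for Zcchc7, 0.65 to 0.92 for Snhg14 and -1.41 to -1.07 for Dcp1b. It was 0.28 to 0.40 for Cdk7, -0.44 to -0.29 for Uhrf1 and -0.55 to -0.39 for Parp1. Snhg18 lost it without Exosc10 cKO 1_4 or 2_4 (adjusted p up to 0.0553), Setdb1 without Dis3 cKO 1_3 or 2_2 or Exosc10 cKO 2_1 (up to 0.0602), and Slc38a1 without Dis3 cKO 1_4 or 2_2 or Exosc10 cKO 1_4 (up to 0.0871). All 24 genes with the largest differences, Exosc10 among them, were called under every alternative, and no named gene changed its sign in any.

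The share of mitochondrially encoded protein genes overlapped between the genotypes. It was 0.219% to 0.728% (median 0.406%) in Dis3 cKO and 0.390% to 0.902% (median 0.485%) of gene counts in Exosc10 cKO. All 8 Exosc10 cKO oocytes lay above the Dis3 cKO mean on the log2 scale. The log2 difference was 0.45 (exact permutation test, p = 0.0915, adjusted p = 0.173), and none of 7 genes tested was called by edgeR. The difference was 0.59 without Dis3 cKO 1_4 (exact p = 0.0193) and 0.47 without both low-ratio oocytes (exact p = 0.0373).

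To see whether a direction seen between the p20 knockouts appeared where Dis3 was lost in other oocytes, the called genes were read in adult RiboMinus oocytes (8 Dis3 cKO and 8 control) and in poly(A) libraries of germinal vesicle (GV) oocytes, still arrested before meiotic maturation, (15 Dis3 cKO and 8 control), which share no sample with the p20 groups. Among 13711 genes tested in both RiboMinus fits, 15.5% were called higher and 13.6% lower in adult Dis3 cKO. Of the 757 of these genes that were higher in Dis3 cKO than in Exosc10 cKO at p20, 90 (11.9%) were called higher in adult Dis3 cKO and 120 (15.9%) lower. Of the 624 genes that were lower in Dis3 cKO at p20, 119 (19.1%) were called higher and 100 (16.0%) lower. The same sign for Dis3 cKO was thus called in 11.9% against a background of 15.5% for the former genes, and in 16.0% against 13.6% for the latter. The p20 sign compares both knockouts and does not say which loss moved a gene. In poly(A) libraries 12.9% of 13072 genes were called higher and 13.7% lower. The corresponding shares were 9.68% and 15.3% of 744 genes higher in Dis3 cKO at p20, and 18.5% and 16.3% of 601 genes lower. Adult calls rest on single oocytes: with counts summed per title tag edgeR called 0 genes (3577 at an unadjusted p under 0.05), and each adult tag holds 1 genotype. Scaling to ERCC counts changed the split from 2405 higher and 1900 lower to 699 and 6144 in adult oocytes, and from 2242 and 1877 to 1102 and 3248 in poly(A) libraries. Adult and poly(A) directions are thus relative to the bulk of RNA.

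Within the set with non-overlapping groups, 150 genes lower in Dis3 cKO at p20 were tested in the adult fit, and 33 of them (22.0%) were called lower and 17 (11.3%) higher there. Of 149 genes higher in Dis3 cKO at p20, 17 (11.4%) were called higher and 24 (16.1%) lower. Over all 13711 genes tested in both RiboMinus fits, 15.5% were called higher and 13.6% lower. In poly(A) libraries 149 genes of this set lower in Dis3 cKO at p20 were tested, 14.1% called higher and 20.1% lower. Of 148 genes higher in Dis3 cKO at p20, 7.43% were called higher there and 19.6% lower. The poly(A) shares over all 13072 genes were 12.9% and 13.7%. Genes lower in Dis3 cKO than in Exosc10 cKO at p20 and called lower in Dis3 cKO than in control in the adult included Myo7a, with an adult log2 difference of -1.78 ± 0.24 (adjusted p = 3.29e-05), and Fmo6, with -4.75 ± 0.42 (adjusted p = 3.28e-07) and adult levels of 18.5 and 21.5 CPM in the control tags against 0.500 and 1.01 CPM in the Dis3 cKO tags. AY512915 (-0.97 ± 0.30, adjusted p = 0.0223), Gm7104 (-0.66 ± 0.22, adjusted p = 0.0313) and Gm49371 (-3.70 ± 1.00, adjusted p = 0.00962) were also called. In Gm49371 the control tags were far apart, at 13.6 and 0.225 CPM, with the Dis3 cKO tags at 0.988 and 0.193 CPM. The tags of AY512915 overlapped, at 52.1 and 87.8 CPM in control and 18.2 and 55.8 CPM in Dis3 cKO. Called higher in adult Dis3 cKO, and higher in Dis3 cKO than in Exosc10 cKO at p20, were Entpd1, an ectonucleotidase (1.18 ± 0.24, adjusted p = 0.00106), Lmo4, a LIM-domain factor (1.45 ± 0.42, adjusted p = 0.0135), Zim1, an imprinted zinc finger gene (1.38 ± 0.37, adjusted p = 0.00913), Gm7972 (1.06 ± 0.18, adjusted p = 0.000285), Tmem260 (0.67 ± 0.17, adjusted p = 0.00579) and Gm22058 (0.92 ± 0.23, adjusted p = 0.00578). For Zim1 the difference lay in 1 tag, with controls at 6.63 and 5.60 CPM and Dis3 cKO at 28.1 and 6.55 CPM. At p20 Entpd1 was at 25.1 to 42.3 CPM in Dis3 cKO and 1.76 to 16.4 CPM in Exosc10 cKO, and Tmem260 at 22.4 to 49.9 CPM and 8.27 to 16.4 CPM. These genes were picked by their adult call, so their adult values are a description. Entpd1 went the other way in poly(A) libraries, with a log2 difference of -2.42 ± 0.41 (adjusted p = 6.01e-05). Pxdn, for comparison, had an adult log2 difference of -0.54 ± 0.17 (adjusted p = 0.0256) and was at 122 to 133 CPM in the control tags and 69.6 to 115 CPM in the Dis3 cKO tags. Hist1h4h and Hist1h4i, higher in Exosc10 cKO at p20, were called higher in Dis3 cKO than in control in poly(A) libraries (1.33, adjusted p = 0.00206, and 1.89, adjusted p = 0.00456). Neither was called in the adult fit (-0.27 and 0.080). Hist1h4d and Hist1h4b were not called in the adult fit and not tested in poly(A) libraries.

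The dcKO oocytes, which lack both ribonucleases, lay on neither side as a rule. For the 157 genes higher in Exosc10 cKO the mean dcKO level was nearer to Exosc10 cKO in 89 and nearer to Dis3 cKO in 68. All 8 dcKO oocytes were nearer to Exosc10 cKO in 56 genes, all nearer to Dis3 cKO in 24, and mixed in 77. For the 149 genes lower in Exosc10 cKO the means split 87 to 62, and the counts for all 8 oocytes were 37, 34 and 78 mixed. Some genes differed between the title tags of dcKO: Arhgef15 was at 0.157 CPM in tag 1 and 29.7 CPM in tag 2, Sh3rf2 at 0.0877 and 19.8 CPM, and Gm46426 at 21.2 and 0.128 CPM.

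The on and off genes were then read by title tag in groups outside the comparison of the single knockouts. Of the 18 genes, 5 were on (mean of at least 10 CPM) in all 4 adult title tags, 4 were off (at most 3 CPM) in all, and 5 were on in some and off in others. In the adult control group alone 2 genes were on in a tag and off in the other, in adult Dis3 cKO 3, and in dcKO 4. AC127234.1, for example, was at 23.0 CPM in adult control tag AM1758 and at 0.0280 CPM in tag AM1759, and BC023719 at 13.1 and 0.273 CPM. Such genes thus varied by tag within a genotype. Over the whole set of 306 genes, tag means were compared with 1 CPM added to each. They differed by at least 4-fold in 9 genes (2.94%) of adult control, 13 (4.25%) of adult Dis3 cKO and 8 (2.61%) of dcKO. The shares of all tested genes were 0.200%, 1.04% and 0.250%. The 306 genes had to reach a mean of 10 CPM in a single knockout, a limit that all tested genes did not have to meet. These shares are thus not of like sets. Within p20 Dis3 cKO and Exosc10 cKO, whose tags the choice of genes constrains, the counts were 0 and 1. Differences between tags were not tested, and their part in the comparison of the knockouts was not tested either.

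**Figure D4:**
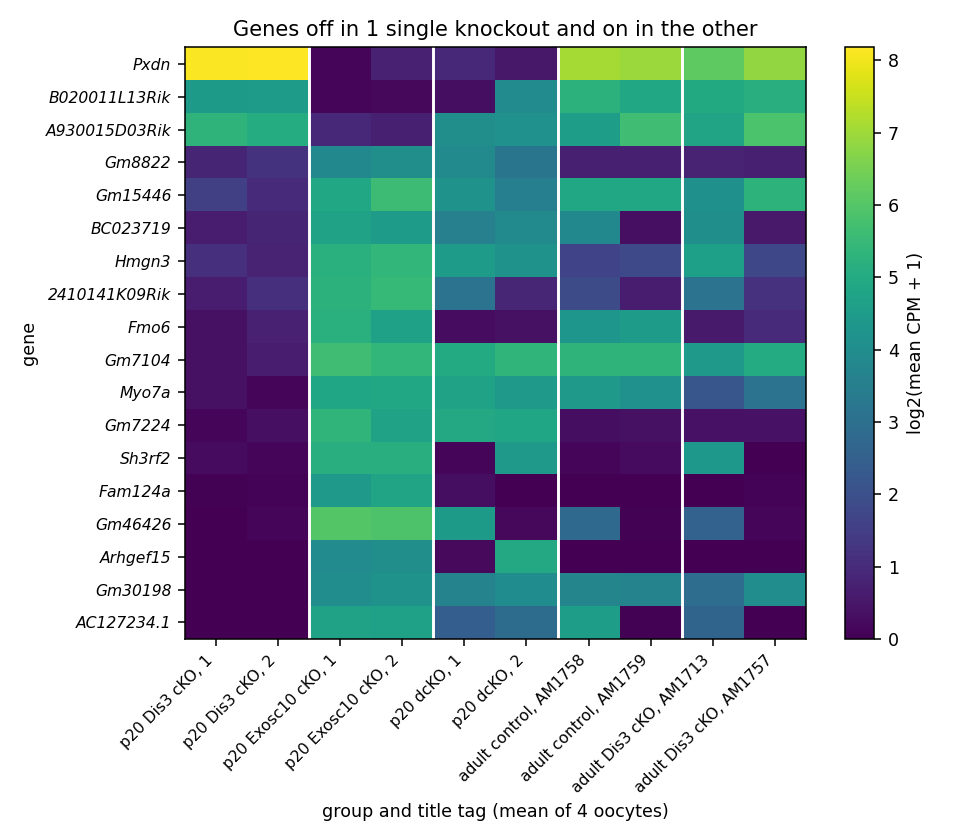
Mean level by title tag (x axis, 4 oocytes each; colour: log2 of mean CPM + 1) of the 18 genes (y axis) that were at most 3 CPM in all oocytes of a single knockout and at least 10 CPM in all of the other at p20. AC127234.1 and BC023719 are on in adult control tag AM1758 and off in AM1759, and Arhgef15 and Sh3rf2 are on in only 1 of both dcKO tags.

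Either title tag gave the same directions at p20. Tag 1 alone called 610 genes and tag 2 alone 479. They shared 287 calls (47.0% of the former and 59.9% of the latter), and all 287 had the same sign. Of 587 tag 1 calls that were tested in tag 2, 572 (97.4%) had the same sign there, and of 467 tag 2 calls tested in tag 1, 463 (99.1%).

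Called genes were unevenly spread over the genome (positions from RefSeq, GRCm38.p6, for 13051 tested genes). Chromosome 1 had 142 of 819 genes called (17.3%), chromosome 17 91 of 595 (15.3%) and chromosome 12 72 of 502 (14.3%), while chromosome 10 had 38 of 638 (5.96%) and chromosome 19 25 of 405 (6.17%). In windows of 10 Mb with at least 20 tested genes the median share called was 9.09% over 222 windows. In 9 windows at least 30% were called, and these held 139 called genes, 10.4% of those with a position, and 3.15% of the tested genes. The highest share was in the window from 20 to 30 Mb of chromosome 12, which holds Pxdn, with 5 genes called higher and 10 lower of 31 (48.4%). In the others both directions also occurred, as in the window from 160 to 170 Mb of chromosome 1, with 13 higher and 11 lower of 67, and from 70 to 80 Mb of chromosome 9, with 5 higher and 16 lower of 70. Around the targeted genes, within 10 Mb of Dis3, 1 of 22 other tested genes was called (4.55%; Bora, log2 difference -0.29, adjusted p = 0.0424). Within 10 Mb of Exosc10, 12 of 171 were called (7.02%), 7 higher and 5 lower. The lowest adjusted p among these 12 were those of Ttc34 (log2 difference 1.503, adjusted p = 2.101e-05) and Eno1 (1.491, adjusted p = 0.0003908). Both shares rest on few called genes, and their difference from the 10.1% of all genes was not tested. Windows were sorted by the calls, so these shares are a description.

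**Figure D5:**
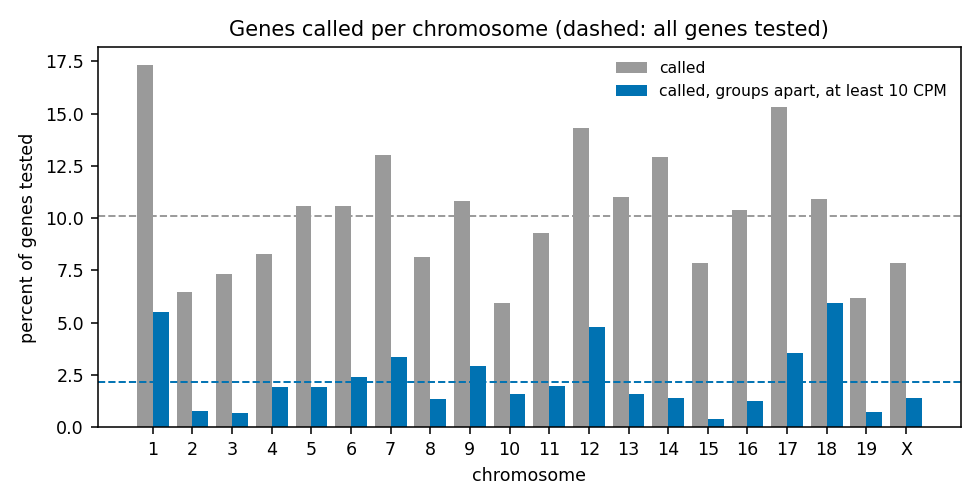
Percent of tested genes that were called (grey) and that were called with non-overlapping groups and at least 10 CPM (blue) on each autosome and X (x axis; Y and MT, with 2 tested genes each among those with a RefSeq position, are not drawn), with the values over all genes as dashed lines. Chromosome 1 has the tallest grey bar at 17.3%, and chromosomes 18, 1 and 12 the tallest blue bars.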

How the data were processed

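RNA of 16 single p20 oocytes was measured by RiboMinus sequencing, with 1 file per oocyte. The authors deposited whole-number read counts per gene and ERCC RNA. The submitters' processing notes name mm10, cutadapt 2.5, STAR 2.7.2a and HTSeq 0.9.1, and settings, annotation and use of strand are not given in the sources used here, so genes that overlap others (30 of 66 named genes with a position) may share reads. Counts were tested with edgeR 4.0.16 in R 4.3.3 (TMM, filterByExpr, quasi-likelihood F test, Benjamini-Hochberg over all genes, log2 difference Exosc10 cKO minus Dis3 cKO). SE is the log2 difference divided by the square root of F. Single values used 2-sided exact permutation tests over 12870 regroupings, scipy 1.17.1. Symbols matched 99.4% of IDs. Replicates of a group differed by more than sampling noise (chi-square per degree of freedom at least 11.2).

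Members and lists were chosen with earlier results of these data known. Named genes are the targeted genes, 12 per direction with the largest difference among called genes with non-overlapping groups and at least 10 CPM, up to 4 called genes per list, 6 per direction also called in adult oocytes with the same sign for Dis3 cKO, and up to 4 lncRNA genes per direction; 1 of the latter is not reported here. A further rule, for called genes off in a title tag and on in the other within a genotype, found 0 genes. The tests were checked on simulated counts. Alternatives were DESeq2 1.42.0, its size factors, ERCC scaling, no filter, all 4 p20 groups, blocks, sums per tag, single tags and leave-outs. Thinning and leaving out the oocytes of lowest ratio were added after seeing the data.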

Additional observations from a re-analysis of the deposited data

Results flagged for a closer look

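Within groups of 8 oocytes, 12 of 98 group values examined had an oocyte far from the others. A rate by chance of about 1 in 20 holds for independent, normally distributed values. CPM values need not be so, and some oocytes recur, so an excess over chance was not established. Gene counts per ERCC count came to 547.4 in Dis3 cKO 1_4 and 582.2 in Exosc10 cKO 2_4, each the lowest of its group. Exosc10 cKO 2_4 was also the highest of its group in the lncRNA share, at 1.49%, and in the mitochondrial share, at 0.9015%. Among genes, low oocytes were Exosc10 cKO 2_3 for Adra1b (7.761 CPM) and Gm16548 (3.253 CPM), 1_4 for 5730507C01Rik (7.568 CPM), 1_3 for Fam124a (11.52 CPM), 2_1 for Nlrp4c (28.62 CPM), and Dis3 cKO 2_4 for Kctd21 (30.94 CPM). High oocytes were Dis3 cKO 1_2 for Trim15 (89.18 CPM) and 2_3 for Ccnt1 (111.8 CPM). Adra1b, 5730507C01Rik, Fam124a, Gm16548, Kctd21 and Trim15 still did not overlap between the genotypes.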

How the results depend on the processing

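The direction of Dis3, Exosc10 and all other named genes was the same under every alternative run. The number of called genes was 1412 and became 770 with ERCC scaling, 610 with title tag 1 alone and 479 with tag 2 alone; leaving out 1 oocyte gave 1150 to 1459, DESeq2 gave 2058, and counts summed per tag gave 969. The log2 difference ranged over leave-outs from 2.95 to 3.25 for Dis3 and from -5.85 to -5.09 for Exosc10. For the ratio to ERCC it was 0.143 to 0.413, for the lncRNA share 0.0293 to 0.0809, for the mitochondrial share 0.336 to 0.587 and for the histone share 0.641 to 0.871. Without both low-ratio oocytes the ratio differed by 0.2905 (exact p = 0.00408) and the mitochondrial share by 0.4717 (exact p = 0.0373), and without the most abundant lncRNA the lncRNA share differed by 0.09339 (exact p = 0.0311). Adult calls were 4305 and became 6843 with ERCC scaling and 0 with counts summed per tag. With a replicate block for the title tag 1453 genes were called (654 higher, 799 lower), and 1413 with a replicate block for tag and number (616 higher, 797 lower), and the replicate block for the tag changed no call of the 4 values per library (histone share, exact p = 0.00776). The numbers do not pair oocytes across genotypes: same-numbered oocytes deviated together with correlations of -0.107 to 0.325, 1 of 8 above 0.1, and 3 of 8 Dis3 cKO oocytes correlated best with their own number. Of 68 other named genes 31 lost the call in at least 1 alternative, 28 with tag 2 alone, 24 with tag 1 alone and 20 with ERCC scaling. Depth differed between the groups without overlap, and thinned counts gave 1381 calls, 1303 of them among the 1412.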
